A study of Mus musculus with 6 samples.

Results

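The outer segment of a rod or cone is a modified cilium packed with discs of membrane, and 9 genes that build it or the matrix around it are described here in the developing mouse retina: Prph2, Rom1, Rp1, Rp1l1, Prom1, Cdhr1, Fscn2, Impg1 and Impg2. They were taken by name, as a group that shares this function, with earlier results of these data known. Each poly(A) site was given to a gene when its 3′ edge lay in, or within 1000 bases downstream of, the GENCODE M21 gene model on the same strand. The 9 genes held 37 of the 32688 sites of the series and were 9 of the 14416 genes with a site. All 9 passed the filter on low counts.

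PA-seq was used, which primes complementary DNA with oligo(dT) and counts tags at the 3′ ends of polyadenylated RNA, so that both the amount of an RNA and the place where it ends can be read. Whole retinas of C57BL/6J mice, an inbred strain, were sampled, 1 sample each, on embryonic days E13.5, E15.5 and E18.5, at birth (P0) and on postnatal days P6 and P21. The labels name no mutation or treatment and do not give the sex or the number of animals in a sample. The series asked how poly(A) site use changes as the retina develops.

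Outer segments grow after birth in the mouse. Peripherin 2 and ROM1 are partner tetraspanins that hold the hairpin rim of each disc, while prominin 1 and the photoreceptor cadherin CDHR1 act at the base, where new discs unfold. RP1 and RP1L1 are doublecortin-domain proteins bound to the microtubules of the axoneme, fascin 2 bundles actin filaments, and IMPG1 and IMPG2 are the proteoglycans of the interphotoreceptor matrix that fills the space between outer segments and pigment epithelium. Mutations in most of these genes cause inherited retinal dystrophies in humans.

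The 3′ ends that carried the counts are shown first, because each value below is a number of tags at such an end. Every sequence is the last 30 bases of annotated transcript up to the site (GENCODE M21, GRCm38), read 5′ to 3′ on the strand of the gene, with the poly(A) signal AATAAA or its common variant ATTAAA in capitals. Where both were present only AATAAA is in capitals, as in Rp1, whose sequence also holds ATTAAA in small letters nearer the site. The first pair are the alternative ends of Prph2, which lay 983 bases apart in the same 3′ UTR. The others are the most used end of Rom1, Prom1, Cdhr1, Fscn2 and Impg2, the 3′ UTR end of Rp1 and the most used end of Rp1l1.
Prph2, proximal site (chr17:46923916-46923945, plus strand): cttgaaacataaaagcaaggtgaaaataag
Prph2, distal site (chr17:46924899-46924928, plus strand): taagagatATTAAAaactatattgtatgaa
Rom1 (chr19:8927393-8927422, minus strand): ccagattctacAATAAAgtttgtggacaga
Rp1 (chr1:4344146-4344175, minus strand): tttAATAAAaagtattattaaacctttcca
Rp1l1 (chr14:64034992-64035021, plus strand): taaagggctcccgtgtggggaaacattttc
Prom1 (chr5:43993622-43993651, minus strand): gagatttaaAATAAAgcatgaatgaacaga
Cdhr1 (chr14:37077857-37077886, minus strand): aatggtaAATAAAatctattattcaaagga
Fscn2 (chr11:120368139-120368168, plus strand): accgacccagcATTAAAcctttgttgcgga
Impg2 (chr16:56273724-56273753, plus strand): gtatccattagtAATAAAcatgtctttcaa
Among the 14 sites of these genes in annotated 3′ UTR, 7 had AATAAA in the 40 bases before the site, 3 had ATTAAA alone and 4 had neither. Over all 22649 such sites in the table the shares were 58.4% with AATAAA, 16.9% with ATTAAA alone and 24.7% with neither. The busiest single end of the group, the proximal site of Prph2, was among those with neither. The most used site of Impg1 (chr9:80313996, minus strand) had an AATAAA that began 33 bases before it, outside the stretch shown for the others.

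Of the 41695 tags on the 37 sites, 86.4% fell on the 14 sites in 3′ UTRs. A site up to 5 bases past an annotated end was counted to the 3′ UTR, which applied to the main site of Cdhr1 (2 bases, 5207 tags) and the single site of Fscn2 (1 base, 1490 tags). Another 12 sites lay in introns and held 4.55% of the tags, 7 lay in coding sequence with 1.72%, 2 lay further downstream with 0.866%, and 2 lay in an exon of a noncoding transcript listed under Rp1l1 with 6.50%.

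The table gives 2 count columns for each stage and the sources used here do not say what they stand for. The columns were therefore added, which gave 3286158 to 4656153 tags per stage, and they were not used as replicates. No value has a replicate, so 2 stages cannot be tested against each other and every interval below covers counting error only. The columns agreed poorly for these genes before P6. In CPM, which is tags per 1000000 tags in genes after TMM scaling of the library sizes, the first 4 stages had a gap in 1 direction. At each of them all 9 genes were higher in the first column than in the second, by 1.24 to 43.0 times at E13.5, 1.52 to 109 times at E15.5, 1.16 to 5.25 times at E18.5 and 1.55 to 11.3 times at P0. At P6 the ratios ran from 0.928 to 1.23, and at P21 from 0.818 to 2.66. A first column at least 2-fold above the second, with 20 tags or more in the larger, was found for 6, 8, 3, 7, 0 and 1 of the 9 genes at the 6 stages, taken in order. The same held for 1.58%, 2.83%, 0.910%, 1.81%, 0.778% and 2.12% of all 14403 genes tested, in the same order.

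**Figure D1:**
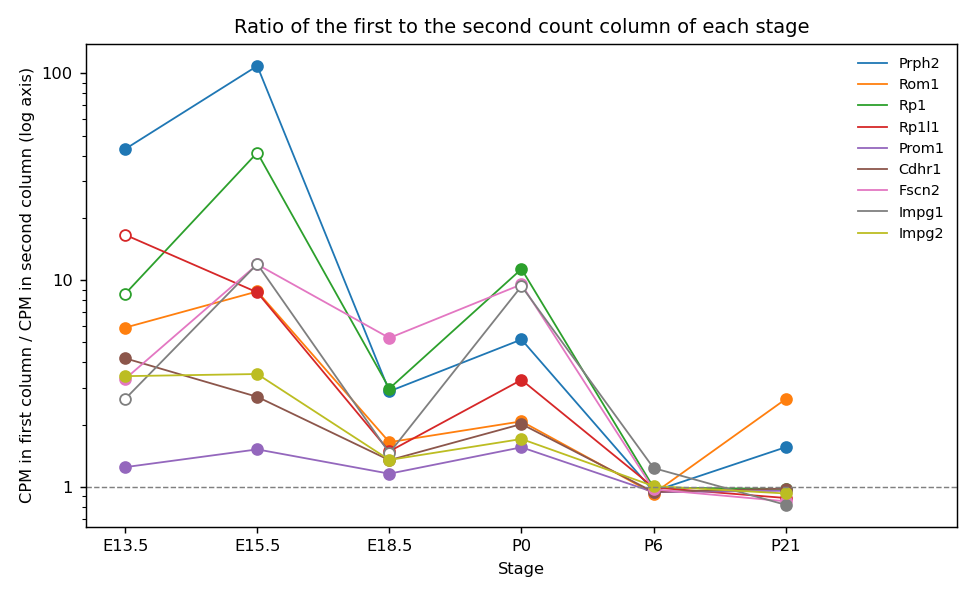
Ratio of CPM in the first count column to CPM in the second (log axis) for each of the 9 genes at each stage, with counts under 3 tags set to 3. Open points mark a second column under 3 tags, the dashed line marks equal columns, and the genes come together near it at P6 after ratios of up to 109 for Prph2 at E15.5.

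Rod markers moved with the columns in the same way. The summed level of 6 rod genes (Nrl, Nr2e3, Gnat1, Pde6b, Cnga1 and Sag) was 674, 1325, 781, 1494, 2325 and 3107 CPM in the first columns from E13.5 to P21. In the second columns it was 38.4, 54.3, 343, 493, 2459 and 2722 CPM. At P21 the 8 progenitor markers summed to 966 CPM in the first column and 196 CPM in the second. What part these differences have in the results below was not tested, and fits to each set of columns are given beside the main ones.

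With stage, 5 of the 6 rod markers rose and 7 of the 8 progenitor markers fell, and the rod sum was 2913 CPM at P21, against 381 CPM at E13.5. Markers of other retinal cells also moved with stage: 6 of 9 bipolar markers (median log2 change 4.91), 4 of 6 amacrine markers (3.33) and 4 of 8 Mueller glia markers (2.43) rose and none of these 23 fell, while 1 of 7 ganglion cell markers rose and 2 fell. Over all genes 17.0% rose and 13.1% fell. Many of these calls needed P21. Without it 3 rod, 3 bipolar, 3 amacrine and 1 Mueller glia markers rose, beside 6.18% of all genes, and 3 progenitor markers fell. The ganglion cell calls stayed at 1 and 2. In the first and the second columns alone 5 and 6 rod markers rose, and 6 and 4 progenitor markers fell. In bulk retina, more rods and more RNA per rod cannot be told apart. Of 9 pigment epithelium markers, Rpe65, Tyr and Lrat are not in the table, and 3 of 6 measured ones rose (0 without P21). Their sum was highest at P21 (346 CPM) and lowest at E18.5 (43.0 CPM). The 7 lens markers, of which 0 were called by edgeR and 0 had an unadjusted p under 0.05, summed to 1676 CPM at E15.5 and 1883 CPM at P0, against 167 to 676 CPM at the other 4 stages. What part any of these lists has in the results was not tested.

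Over development 8 of the 9 genes rose. The trend was tested with edgeR's quasi-likelihood test of a straight line over stage order, with Benjamini-Hochberg adjustment over all 14403 genes, of which 2447 (17.0%) rose and 1886 (13.1%) fell. None of the 9 fell, and Rom1, the partner of peripherin 2, was the one not called. The fitted log2 change over the 5 steps to P21 had a median of 3.68 over the 9 genes, beside -0.02 over all genes tested. The calls divided in the same way in the first columns alone, where 8 of the 9 and 14.4% of all genes rose, and in the second columns alone, where 8 of the 9 and 16.0% rose. Without P21, 7 of the 9 rose, against 6.18% of all genes: Fscn2 (adjusted p = 0.109) and Impg1 (adjusted p = 0.122) lost their calls and Rom1 gained one (2.84 ± 0.39, SE, 5 libraries, adjusted p = 0.0144). When P0, P6 and P21 were set against the 3 embryonic stages as blocks, no gene was called (0.00% of 14403; 2064 rising at an unadjusted p under 0.05 by edgeR, 8 of the 9 genes among them).

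**Figure D2:**
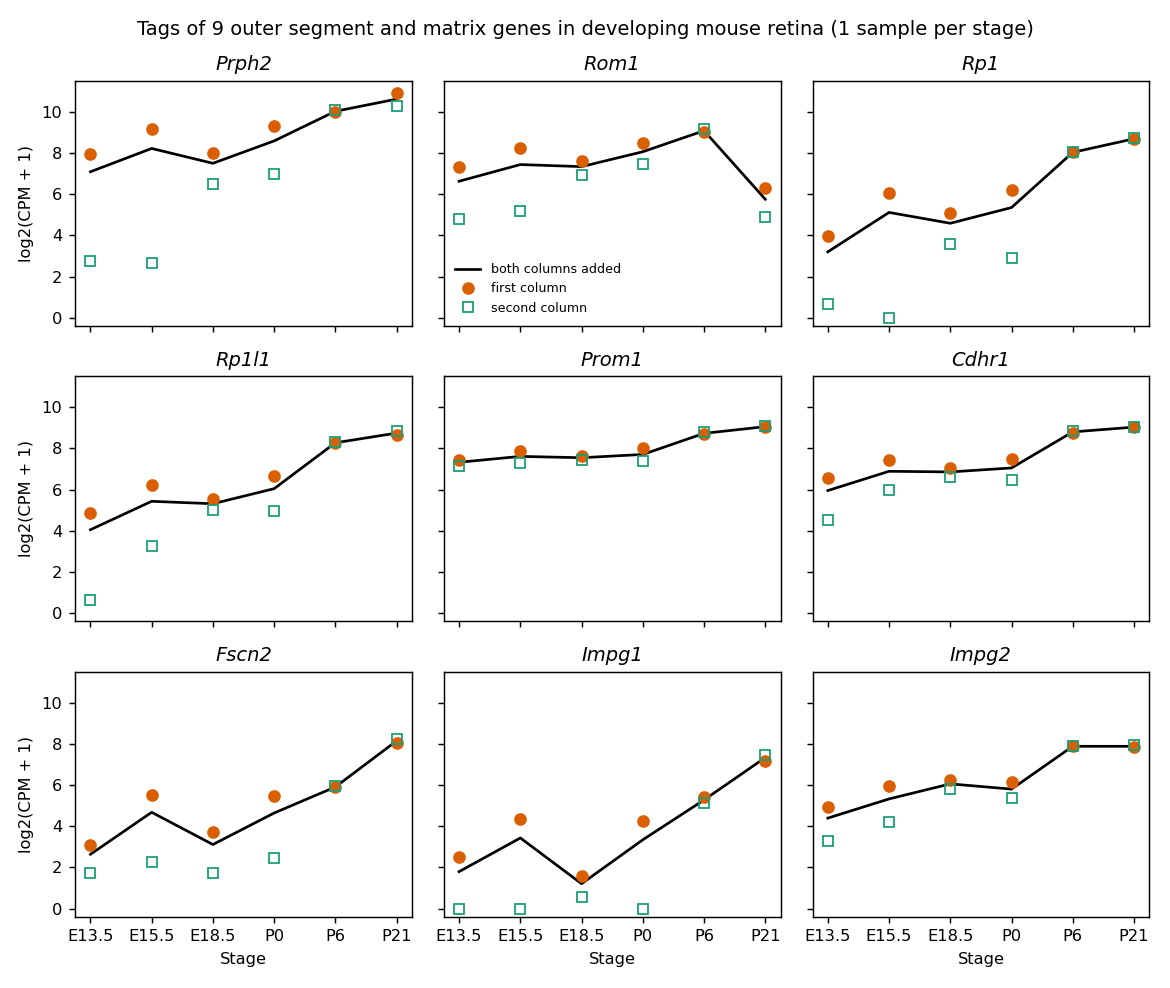
Level of each gene as log2(CPM + 1) at the 6 stages. Lines show both count columns added, filled circles the first column and open squares the second; the squares lie below the circles at each stage up to P0, and the line of Rom1 alone turns down at P21.

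Between neighbouring stages, P6 set against P0 had the most genes of the group past a 2-fold difference. All 9 genes were at least 2-fold higher at P6 than at P0, with 20 tags or more at the higher stage, which held for 8.96% of all genes. The folds ran from 2.03 for Rom1 to 6.54 for Rp1. All 9 also passed in the second columns, from 2.68-fold for Prom1 upward. In the first columns only Rp1, Rp1l1, Cdhr1, Impg1 and Impg2 did so, and the ratio of the other 4 was 1.35 to 1.63. The share of all genes passing was not counted for either set of columns alone. For this step the median log2 difference over all genes was 0.008 (first columns) and -0.002 (second columns), beside 1.20 and 3.11 over the 9. Earlier steps moved fewer of the genes. At E15.5, 5 of the 9 (Prph2, Rp1, Rp1l1, Fscn2 and Impg1) were at least 2-fold higher than at E13.5, as were 720 of all genes (5.0%). In the first columns these 5 differed by 2.37-fold to 5.87-fold. In the second columns the tags at E15.5 and E13.5 were 10 against 10 for Prph2, 0 against 1 for Rp1, 16 against 1 for Rp1l1, 7 against 4 for Fscn2 and 0 against 0 for Impg1, so the step was not seen there for Prph2, Rp1 and Impg1. Fscn2 and Impg1 were at least 2-fold lower at E18.5 than at E15.5, as were 2.22% of all genes, and Prph2, Fscn2 and Impg1 were at least 2-fold higher at P0 than at E18.5, as were 1.92%. The columns went apart at these steps as well. From E15.5 to E18.5 the first columns had a median log2 difference over the 9 genes of -0.72 and the second columns one of 1.68, where Prph2 was 16.6-fold higher at E18.5. From E18.5 to P0 these medians were 1.13 and -0.01. In the second columns Fscn2 had 5 or 7 tags and Impg1 0 or 1 at each of these stages, and Prph2 was 1.40-fold higher at P0 than at E18.5. From P6 to P21 the group parted: Fscn2 and Impg1 were at least 2-fold higher at P21 (9.14% of all genes), Rom1 was at least 2-fold lower (4.26%), and the other 6 lay between 0.999-fold and 1.58-fold. Set against E13.5 directly, P21 was at least 2-fold higher for the 8 genes other than Rom1, and for 21.6% of all genes.

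Prph2, which encodes the rim protein peripherin 2, had the most tags of the group. It stood at 135.5, 298, 181, 385, 1045 and 1576 CPM from E13.5 to P21. The last value rests on 5751 tags (95% exact Poisson interval 1536 to 1617 CPM) and the first on 495 (124 to 148 CPM). The 11.6-fold difference is wider than these intervals, which do not cover the gap between the columns. By column the difference was 7.77-fold in the first and 215-fold in the second, so its size is uncertain. The fitted log2 change was 3.42 ± 0.50 (SE, 6 libraries; edgeR, adjusted p = 0.00470). At E13.5 and E15.5 nearly all tags were in the first columns, which held 485 and 1121, while the second columns held 10 at each of these stages. Fitted on the first columns alone the change was 2.57 ± 0.51, and on the second columns 8.76 ± 1.01, both called (adjusted p = 0.0106 and 0.00241).

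Rom1, whose product pairs with peripherin 2, followed it only as far as P6. It stood at 98.3, 173, 161, 267 and 543 CPM from E13.5 to P6, and at 53.2 CPM at P21. With the columns added P21 was thus the lowest of the 6 stages, with 194 tags (95% exact Poisson interval 46.0 to 61.2 CPM), against 2201 tags at P6 (520.3 to 566 CPM). This 10.2-fold lower level at P21 was present in both columns, as 77.3 against 527 CPM in the first and 29.1 against 567 CPM in the second. In the second column the P21 level was close to that of E13.5 (27.0 CPM). An 8-fold lower level at P21 than at P6 was found for 40 genes in all (0.278% of 14403), and Rom1 was the 1 of the 9 genes among them. The fitted line had a log2 change of 1.32 ± 1.21 (edgeR, adjusted p = 0.434), with 0.42 from the first columns and 3.82 from the second, neither called (adjusted p = 0.775 and 0.143). Its sign rested on single choices: it was -0.50 without P6 and -0.54 when stage order was replaced by days after conception.

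Almost all tags of Rom1 lay on 1 site with an AATAAA, shown above, and the difference between P21 and P6 was at that site. It held 144 tags at P21 (116 in the first column and 28 in the second), against 2167 at P6 (1108 and 1059). A minor site downstream of the annotated end did not follow it, with 50 tags at P21 and 34 at P6, so that the share of Rom1 tags on the main site was 74.2% at P21 (95% Wilson interval 67.6 to 79.9%), against 98.5% at P6 (97.8 to 98.9%). Of the tags of Prph2 and Rom1 together, Prph2 took 96.7% at P21 (96.3 to 97.2%), with 96.1% in the first column and 97.7% in the second, against 52.8% to 65.8% at the 5 earlier stages. By column the earlier shares differed: from E13.5 to P6 they were 60.9%, 65.5%, 56.8%, 64.0% and 66.1% in the first columns and 17.54%, 13.3%, 42.8%, 41.7% and 65.5% in the second. Prph2 thus had fewer tags than Rom1 in the second columns up to P0. These levels are relative to the library and not to a retina or a cell.

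Both axoneme genes rose. The Rp1 values count 2 sites far downstream, described below, and were not computed without them. Those sites held 10 of 127 Rp1 tags at P0, 238 of 1060 at P6 and 21 of 1509 at P21. Rp1 stood at 8.22, 33.8, 23.1, 39.97, 261 and 414 CPM from E13.5 to P21. With the columns added and those sites counted, Rp1 at P6 and at P21 was above each stage up to P0 by 6-fold or more. Its fitted log2 change was 5.41 ± 0.73 (SE, 6 libraries; edgeR, adjusted p = 0.00397). Rp1l1, its paralogue, stood at 15.6, 42.2, 38.8, 65.1, 309 and 429 CPM, and its change was 4.80 ± 0.54 (adjusted p = 0.00284). With the columns added, the largest step of both genes was between P0 and P6, where Rp1 differed by 6.54-fold and Rp1l1 by 4.74-fold. In the first columns this step was 3.58-fold for Rp1, less than its 4.52-fold difference between E13.5 and E15.5, and 3.09-fold for Rp1l1. In the second columns Rp1 had 1, 0, 24 and 10 tags at the first 4 stages and 500 and 763 at P6 and P21. Rp1l1 had 1, 16, 66 and 47 tags there, and then 591 and 830. Fitted on the first and the second columns alone the changes were 4.27 and 10.8 for Rp1 and 3.76 and 7.97 for Rp1l1, all called. Of the tags of both genes, Rp1 took 49.1% at P21 (95% Wilson interval 47.3 to 50.9%), against 34.5% at E13.5 (25.3 to 44.9%).

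The genes of the disc base had the smallest fitted changes of the 8 that were called. Prom1, which encodes a membrane protein of nascent discs that other cell types also express, stood at 160, 195, 186, 208, 425 and 533 CPM. Its level at E13.5 was already 30.03% of that at P21, and its fitted log2 change was 1.76 ± 0.29 (edgeR, adjusted p = 0.00673). Up to P0 its columns differed least of the 9 genes, with 174 and 139 CPM in the first and the second at E13.5. Cdhr1 stood at 61.1, 118, 115, 132, 446 and 524 CPM, a change of 3.10 ± 0.42 (adjusted p = 0.00399). With the columns added, both genes were nearly level over the embryonic stages from E15.5 on and at P0, and both had their largest step at P6. In the first and the second columns the fitted changes were 1.54 and 2.07 for Prom1 and 2.41 and 4.51 for Cdhr1, all called. Prom1 held 72.4% of the tags of the pair at E13.5 (95% Wilson interval 69.2 to 75.3%), 61.2% at P0 and 48.8% at P6, with 50.4% at P21. The share at E13.5 was 65.0% in the first column and 86.2% in the second. The call of Cdhr1 depended on the flank: its main site ended 2 bases past the annotated end of the gene, and when no downstream flank was allowed the minor sites that were left had a change of 4.07 and were not called (adjusted p = 0.0542).

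Fscn2, which encodes the photoreceptor and hair cell fascin, was low until birth and highest at P21. It stood at 5.20, 24.5, 7.63, 23.9, 58.9 and 282 CPM, so that P21 was 4.78-fold above P6 (1028 tags, against 239). The columns agreed at these late stages, with 259 and 305 CPM at P21 and 58.5 and 60.2 CPM at P6 in the first and the second. Before P6 the first columns held 15 to 86 tags per stage and the second 4 to 7. The fitted log2 change was 4.91 ± 0.91 (edgeR, adjusted p = 0.00928) and was 3.23 and not called without P21. Separate fits gave 3.90 (first columns) and 8.59 (second columns), both called. Its single site lay 1 base past the annotated end, so without a flank the gene could not be fitted.

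The matrix genes differed in timing. Impg2, the proteoglycan that spans the membrane, stood at 19.99, 39.1, 65.4, 54.8, 235 and 234 CPM. P21 and P6 were alike within counting error (219 to 251 CPM, against 220 to 250 CPM, 95% exact Poisson intervals). Impg1, the secreted one, stood at 2.46, 9.76, 1.31, 9.13, 37.7 and 160 CPM, and its P21 level was 4.24-fold above P6. Impg1 thus had 40.6% of the tags of the pair at P21 (95% Wilson interval 38.1 to 43.1%), against 13.9% at P6 (11.9 to 16.02%). This was seen in both columns, with 39.0% and 42.0% at P21 and 14.96% and 12.6% at P6. The fitted log2 changes were 3.68 ± 0.48 for Impg2 and 5.64 ± 1.12 for Impg1 (edgeR, adjusted p = 0.00375 and 0.0114). Fits to the first and to the second columns gave 2.97 and 5.02 for Impg2 and 4.42 and 15.6 for Impg1, all called, but the last was fitted to 3 stages with 0 tags and its size is set by the fit rather than measured.

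Impg1 was the gene least certain before P6. The first columns held 9, 37, 5 and 29 tags at the first 4 stages. The second columns held 0, 0, 1 and 0. For ratios a count under 3 tags was set to 3, which is 1.72 CPM at E13.5, 1.61 at E15.5 and 1.94 at P0. In the first columns P21, with 263 tags against 9, was 31.5-fold higher than E13.5. In the second columns, with 321 tags against 0, the ratio of P21 to E13.5 was 102 with the 0 set to 3 tags, so its size depends on that setting. The order of P21 above P6 held in both columns, at 3.46-fold and 5.22-fold in the first and the second.

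Choice between alternative 3′ ends was tested for the 5 genes with a pair of sites of at least 5% of the tags each, namely Prph2, Rp1, Rp1l1, Impg1 and Impg2. By edgeR's diffSpliceDGE, with adjustment over the 6059 genes with such a pair, the distal share followed stage order in none of the 5 (adjusted p = 0.596, 0.876, 0.684, 0.947 and 0.720) and in 2.16% of all pairs. At an unadjusted p under 0.05 by the same test, 0 of the 5 passed, beside 955 of all 6059. The distal share of Impg2 was 85.7%, 82.4%, 84.8%, 81.3%, 76.02% and 79.0% from E13.5 to P21. That of Rp1l1 was 85.7%, 83.5%, 87.4%, 83.6%, 81.5% and 74.2%, so that P21 (95% Wilson interval 72.0 to 76.4%) was the lowest of its stages in both columns. Impg1 stayed between 34.5% and 47.4% on few tags.

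**Figure D3:**
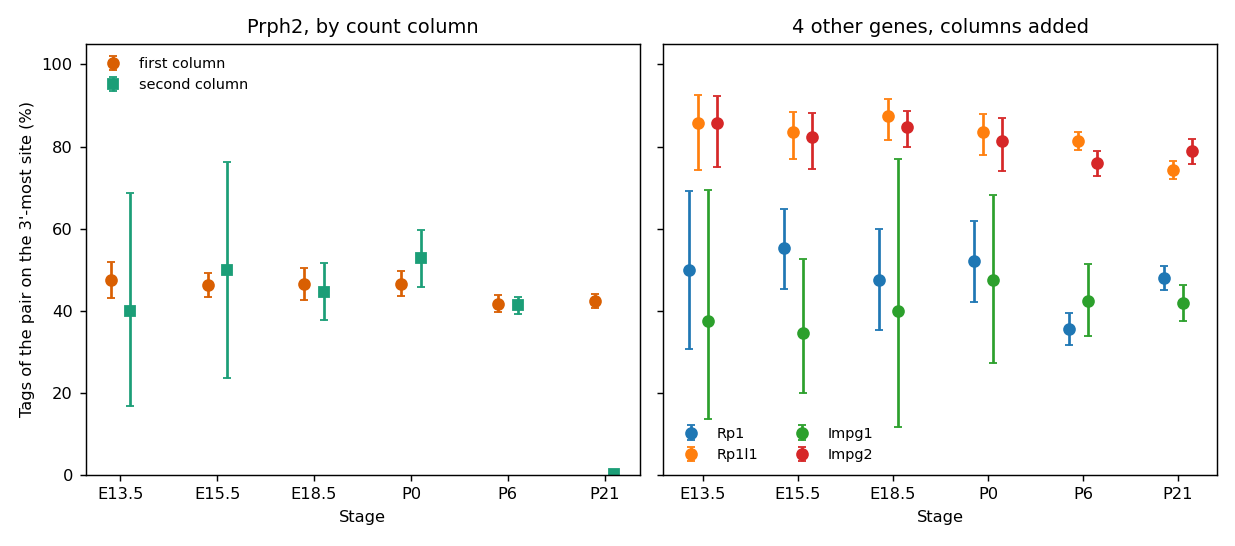
Share of the tags of a pair of sites that lay on the 3′-most site, with 95% Wilson intervals, for Prph2 by count column (left) and for Rp1, Rp1l1, Impg1 and Impg2 with the columns added (right), at the 6 stages. For Prph2 the columns lie together except at P21, where the first stands at 42.4% and the second at 0.270%.

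In Prph2 the choice of end was even until P6 and then depended on the column. The distal share was 47.3%, 46.4%, 46.0%, 47.5% and 41.5% from E13.5 to P6, and 26.0% at P21. At P21 the first column held 1476 distal and 2008 proximal tags, a share of 42.4% (95% Wilson interval 40.7 to 44.0%). The second held 6 distal and 2214 proximal tags, a share of 0.270% (0.124 to 0.588%). At P6 the same columns gave 41.7% and 41.3%. A gap of 20 percentage points or more between the columns at P21 was found for 77 of 5375 pairs of sites (1.43%), and 3 pairs, Prph2 among them, had a gap as wide as its 42.1 points. With the columns added, the lower distal share at P21 than at P6 thus came from 1 column. The proximal site alone gave 1100 and 1215 CPM in the first and the second column at P21, against 597 and 630 CPM at P6, so the higher level of the gene at P21 was also present without the distal site.

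Rp1 had the most scattered ends of the group, with 12 sites. In the 3′ UTR, the end at chr1:4344146 carried 35.3% of its tags and the signal shown above. A site 1657 bases further 3′, which lay in an intron of the longest annotated Rp1 model, carried 28.8%. The levels of these sites at P21 were 154 and 142 CPM, against 86.3 and 47.3 CPM at P6. The share of the further site within the pair was 52.1%, 35.4% and 48.0% at the 3 postnatal stages in order. The lower share at P6 (95% Wilson interval 31.5 to 39.5%) was present in both columns (36.4% and 34.3%).

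Another 7 Rp1 sites lay inside the coding part of its long last exon, more than in any other of the 256 genes with such a site, of which the median gene had 1. Together they held 16.5% of the Rp1 tags at P0, 25.6% at P6 and 25.05% at P21. None of the 7 had AATAAA or ATTAAA in the 40 bases before it, and 82.2% of all 298 coding-sequence sites in the table also had neither. In 5 of the 7 the next 20 bases were rich in A (6 in a row, or 7 among 10), a feature at which oligo(dT) can prime within an RNA, and of the 295 coding-sequence sites in the table with sequence to search 66.1% had it. Whether these tags mark true ends was not tested. The coding sites with the most tags, 158 and 151 over all libraries, were the 2 without such a run and are shown for that reason, with no capitals since no signal was found.
Rp1, coding site 1 (chr1:4348386-4348415, minus strand): aaagtagctagaaatttgaaaggaatggca
Rp1, coding site 2 (chr1:4346329-4346358, minus strand): tttttgctacgattctaacaaaaacaccga

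A further pair of Rp1 sites (chr1:4115663 and chr1:4139052), far downstream in introns of the longest gene model, had a time course unlike the rest of the gene. They held 3, 1, 27, 10, 238 and 21 tags from E13.5 to P21. At P21 this was 5.76 CPM and 1.39% of the tags given to Rp1 (95% Wilson interval 0.912 to 2.12%), against 58.7 CPM and 22.5% at P6 (20.04 to 25.1%). Both columns showed the difference, with 14 and 7 tags at P21 against 111 and 127 at P6. They were counted to Rp1 only because the longest annotated model spans them, and the files do not tie their RNA to that of the main ends.

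**Figure D4:**
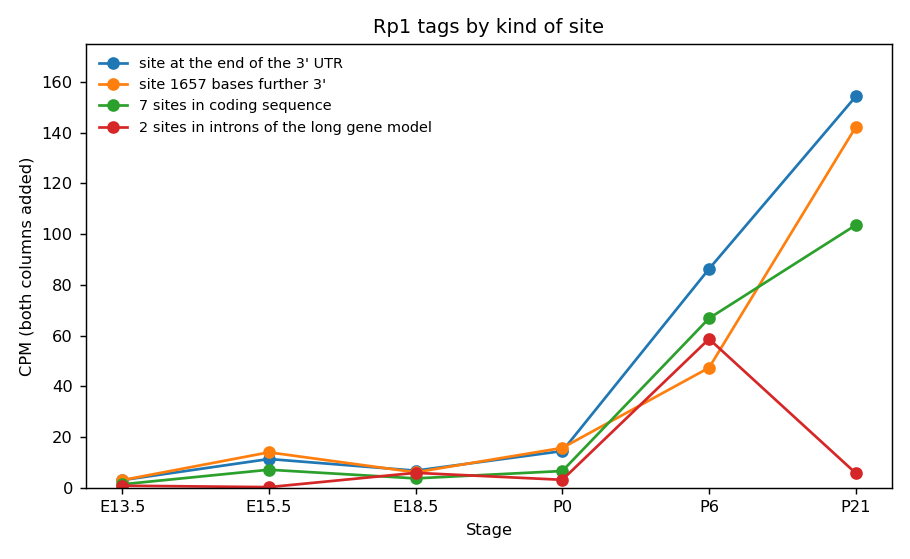
CPM of Rp1 tags by kind of site at the 6 stages, both count columns added. The end of the 3′ UTR, the site further 3′ and the 7 coding-sequence sites are highest at P21, while the 2 sites in introns of the long gene model are highest at P6, at 58.7 CPM.

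Most tags given to Rp1l1 lay beyond its annotated 3′ UTR. The site at chr14:64035021, in the last exon of a noncoding transcript listed under Rp1l1 and 1516 bases past the site in the annotated 3′ UTR, held 77.1% of the tags given to the gene. The files do not tie the RNA of this site to the coding transcript. With the columns added, the 3′ UTR site alone stood at 2.19 CPM at E13.5 and 108 CPM at P21. Neither this 3′ UTR site nor the one at chr14:64035021 had AATAAA or ATTAAA in the 40 bases before it. Prom1, Cdhr1 and Fscn2 had in effect 1 end each: the main site held 90.4% or more of the tags of Prom1 and 96.6% or more of those of Cdhr1 at each stage, and Fscn2 had a single site. In Prom1 the main site's share was 90.4% at P21 (95% Wilson interval 89.04 to 91.7%), against 98.3% at E13.5 (96.9 to 99.07%), with the rest on 2 intron sites, 1 of which also lies in another annotated gene.

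Promoter windows from RefSeq (GRCm38.p6; 250 bases before to 50 after the start) were found for 7 of the 9 genes, in 8 windows, with none matched for Rp1 and Rp1l1. They were searched on both strands for the core TAATCC bound by the homeodomain factor CRX, for the shorter TAATC that the core contains, which was added after the first search was seen, and for TGCTGA, a motif bound by the rod factor NRL. TAATCC was in 0 of the 8 windows and in 7.06% of all 32851, and TGCTGA in 0 of 8 and in 19.5%. TAATC, or GATTA on the other strand, was in 4 of the 8, namely in those of Prph2 (3 matches), Impg1 (2), Impg2 (1) and 1 of the 2 windows of Prom1 (1), and in 22.0% of all windows. The windows of Prph2 and Impg1 are shown because they held the most matches, in capitals, beginning at positions -61, -30 and 34 from the start in Prph2 and at -68 and -42 in Impg1.
Prph2 (chr17:46910228-46910527, plus strand): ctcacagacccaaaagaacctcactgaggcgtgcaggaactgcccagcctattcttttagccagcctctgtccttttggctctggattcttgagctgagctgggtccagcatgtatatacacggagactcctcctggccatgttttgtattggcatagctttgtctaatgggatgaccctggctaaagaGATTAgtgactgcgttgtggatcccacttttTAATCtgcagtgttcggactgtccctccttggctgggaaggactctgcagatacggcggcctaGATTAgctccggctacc
Impg1 (chr9:80465389-80465688, minus strand): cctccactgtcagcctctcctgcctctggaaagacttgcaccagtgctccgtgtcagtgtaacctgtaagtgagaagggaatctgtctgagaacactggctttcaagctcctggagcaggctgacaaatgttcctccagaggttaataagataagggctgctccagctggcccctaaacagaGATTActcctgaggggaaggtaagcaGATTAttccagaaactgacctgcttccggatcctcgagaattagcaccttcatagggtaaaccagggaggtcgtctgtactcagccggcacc
A match of letters is a description of these windows and not a binding site.

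Other photoreceptor genes give the setting, beside the 17.0% of all genes that rose. Of 19 measured rod phototransduction genes, 16 rose and 0 fell (median log2 change 4.15), but 7 rose without P21. Gucy2e, a photoreceptor guanylate cyclase, was at 316.0 CPM at P21, against 6.85 CPM at E13.5, and Gngt1, which encodes the gamma chain of rod transducin, at 390 CPM, against 13.4 CPM. Of 23 genes of outer segment transport and the cilium, 13 rose and 0 fell (median 1.48; 7 rose without P21), led by the cadherin Pcdh15 (5.15 ± 0.76) and Rpgrip1, a protein of the connecting cilium (4.55 ± 0.45). Of 13 photoreceptor transcription factors 8 rose and 0 fell, led by Samd7 (4.63 ± 0.61) and Esrrb (3.85 ± 0.75). Of 13 cone genes 10 rose and 0 fell, with 5 rising without P21, led by Kcne2 (5.42 ± 0.87) and the cone arrestin Arr3 (5.06 ± 0.95). The last 6 genes named had an adjusted p of 0.0108 or less (edgeR), and Esrrb, Kcne2 and Arr3 were not called without P21, nor Esrrb without E13.5, nor Samd7 with days after conception in place of stage order. The rod phototransduction and cone lists overlap: Guca1a (4.15) and Grk1 (4.79), both called, are counted in each.

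Lists of related genes held some that fell. On the list for the matrix and subretinal space, which is not limited to matrix proteins, 6 of 10 measured genes rose and 2 fell. The list was led by Lrit1 (4.79 ± 0.67) and Fam161a, which encodes a ciliary protein of photoreceptors (3.996 ± 0.557). The 2 that fell, named after their values were seen, were Vcan, the versican of the matrix (-2.14), and Spock1 (-1.12). Of 8 tetraspanins, none of them Prph2 or Rom1, 2 rose and 1 fell, with Tspan5 at 222 CPM at P21 against 78.0 CPM at E13.5 (1.32 ± 0.37) and Tspan14 at 27.1 CPM against 183 CPM (-2.32 ± 0.46). Of the 3 fascins and prominins measured, Fscn2 and Prom1 rose and Fscn1, the fascin of many other cells, fell (-0.83). Of 7 doublecortin-family genes 4 rose, led by Rp1 and Rp1l1, and 1 fell, which was Dcx, the doublecortin of young neurons (-1.75). Without P21 none of the 5 genes that fell was called, and Tspan5 was called only with all of E13.5, E15.5, E18.5 and P21 in the fit.

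The profiles of the 9 genes were compared with all others by the root mean square difference of log2(CPM + 1), centred on each gene's own mean, from the mean profile of the 9 over the 6 stages, among 9777 genes with a mean of at least 20 CPM. Prph2 lay closest to that mean (0.125) of all genes, as a contributor to it, Cdhr1 ranked 15 (0.242), and Rom1 ranked 7927 (1.59). The 6 closest genes outside the group were Trnp1 (0.169), Kcnip4 (0.190), Pdc (0.192), Pex5l (0.196), Slc6a9 (0.199) and Dgke (0.199). Pdc encodes phosducin, a binding partner of transducin, and Slc6a9 a glycine transporter used among the amacrine markers here. Each stage is 1 sample, so these distances describe 6 points that share libraries.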

How the data were processed

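PA-seq tags of mouse retina at 6 stages, 1 sample per stage, were analysed. The submitters' processing notes name BWA, version 0.7.5a-r405, and the mm10 build. The authors deposited whole-number counts of tags per poly(A) site cluster in 12 columns, 2 per stage, and an enrichment score per site, per the file headers. How sites were clustered, filtered and scored, and what the columns of a stage stand for, is not given in the sources used here. The score was used for nothing beyond its range, whose lowest value was 3.00.

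Sites were placed on GENCODE M21 by their 3′ edge, and tags were summed per gene. A site in more than 1 gene went to coding genes first. Genes that reached 1 CPM in 2 or more libraries were fitted in edgeR 4.0.16 (R 4.3.3, TMM, quasi-likelihood F test, Benjamini-Hochberg) with 1 linear term for stage order, which assumes equal steps. A change is the fitted log2 change over 5 steps, and its SE is the absolute change over the square root of F. Site pairs were tested with diffSpliceDGE. CPM used TMM sizes; 3 tags were 0.654 to 0.944 CPM. PCR reads are not independent molecules, so exact Poisson and Wilson intervals cover counting error only. The fits were tested on simulated data. Alternatives covered each stage left out, each set of columns, the stage scale, DESeq2 1.42.0, the filter, the flank and the 2-fold threshold. From each list the 2 genes with the largest called change and a mean of at least 20 CPM were named. A few genes were left out of these lists and are not reported here. The 9 genes and all lists were chosen with earlier results of these data known.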

Additional observations from a re-analysis of the deposited data

How the results depend on the processing

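Of the 9 genes, 8 rose under each alternative but 3: 7 without P21, 6 of 8 tested without a downstream flank, and 0 with postnatal set against embryonic stages, where no gene of 14403 rose or fell (0 and 0). Leaving out 1 stage in turn gave 886 to 2650 rising and 424 to 2401 falling genes in all, both lowest without P21. Rom1 had a fitted change of 2.84 (called) without P21, of -0.50 without P6 and of -0.54 with days after conception. DESeq2 called 8 of the 9 rising, with 2748 rising and 2227 falling in all.

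None of the 5 site pairs of these genes was called under any alternative run. Leaving out 1 stage gave 0 to 171 called pairs in all, with 0 without E13.5 and 4 without P21, the first columns alone 50 and postnatal against embryonic 14. The uncalled site choice coefficient of Rp1 was 0.31 in the second columns and that of Impg1 -0.20 without a flank. Of the 9 genes, 5 were at least 2-fold higher at P6 than at P0 in the first columns, against 9 with the columns added. At a 1.5-fold threshold 4 of them were higher at P21 than at P6, against 2 at 2-fold. How many of all genes passed at these alternative settings was not counted, so the 5 and the 4 have no background share. The causes were not tested. No paired analysis was possible because each stage is 1 sample. Before P6 the second columns held 0 to 24 tags of Impg1 and Rp1, which limits the precision of values that rest on them.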
